A study of Tupaia belangeri with 15 samples.

Results

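The retinas of 5 infant and 5 mature tree shrews (TS, Tupaia belangeri) were compared, 10 of the 15 retinas profiled, and together they held 82708 of the 119765 nuclei kept over all stages. Members were chosen by their stage label alone. Retinas labelled Infancy came from TS of 1.4 to 2.1 months, and retinas labelled Mature from TS of 24.96 to 36 months. No treatment is named for either stage, the animals of both came from 1 animal centre, and the study's animal list gives each library its own animal, so n counts animals. The TS is a small diurnal mammal close to primates whose retina is dominated by cones. Single-nucleus RNA sequencing on the 10x Genomics platform gave counts of unique molecular identifiers (UMIs) for each nucleus, and these were summed over all kept nuclei of a retina. The comparison asks which RNAs of the retina differ between infancy and adulthood. In such sums, fewer nuclei of a class and less RNA per nucleus cannot be told apart.

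By the end of infancy the retinal cell classes of a mammal are in place, while synapses, glia and photoreceptor outer segments still mature. Genes usually followed across this span are growth and RNA-binding factors of immature tissue, receptors and channels whose subunits are exchanged, hormone transporters and the matrix around neurons. The TS annotation holds single named genes, but also many features of other kinds. A gene symbol ending in "li" plus a number marks a numbered copy, "-AS-" marks an antisense feature, and LINC features are noncoding RNAs named with the symbol of a gene. A LINC or antisense name is no measurement of the gene it contains. Copies of 1 gene can share sequence, so reads may be divided among them or left uncounted. TSORF, with 274 of the numbered copies tested, is no gene symbol, and its features were counted as copies by their ending alone. Of 27414 features with enough counts to test, 11834 were single named genes, 7868 antisense features, 4838 LINC features, 2698 numbered copies and 176 unnamed features.

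The 10 libraries held 20394216 to 50900459 UMIs in 4231 to 9852 kept nuclei, and no pair of them shared more than 29 barcodes. Per the labels, Infancy 1 to 3 and Mature 1 and 2 had been processed with Cell Ranger 5.0.1 and the other 5 with 7.0.1. Both stages thus contain both versions, and the file headers give 6.1.2 for the former. The 5.0.1 libraries had a median of 1725 to 3064 UMIs per kept nucleus and the 7.0.1 libraries 3463 to 5589. Version and depth per nucleus thus cannot be told apart. Y-linked RNA (DDX3Y, KDM5D and USP9Y summed) was at 78.4 to 86.6 UMIs per 1000000 in Infancy 1, Infancy 3, Mature 2 and Mature 5. In the remaining infant and mature retinas it was at most 0.288. It went against the sex of the study's animal list in 6 of the 10 retinas, 4 infant and 2 mature. The list or its match to the libraries is thus in doubt, and the ages and the count of animals rest on the same list. Lens RNA set 3 retinas apart. Levels are given as CPM, the UMIs of a feature per 1000000 UMIs of its retina. The summed level of 21 lens genes, such as the crystallins that fill lens fibres, was 21615 CPM in Infancy 4, 5051 CPM in Infancy 5 and 11265 CPM in Mature 4, against 50.9 to 88.3 CPM in the other 7. Every kept nucleus of those 3 retinas held at least 1 lens UMI, compared with 10.0% to 31.5% of nuclei elsewhere. Mature 4 also stood apart in the list of fibroblast and sclera genes, at 356 CPM, and in that of ciliary body, iris and cornea genes, at 271 CPM. Its summed level of 16 pigment epithelium genes was 2963 CPM, the highest of the 10 retinas. Without these 3 retinas all 59 features called below kept their sign, but only 10 of the 52 that were higher and 2 of the 7 that were lower stayed called. All 3 are 7.0.1 libraries, and Infancy 4 and Infancy 5 are the only infant ones. Leaving them out thus sets infant retinas of 5.0.1 alone against mature ones of both versions. Lens RNA and version cannot be told apart in that fit. In the 7.0.1 libraries alone, both infant retinas carry lens RNA.

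**Figure D1:**
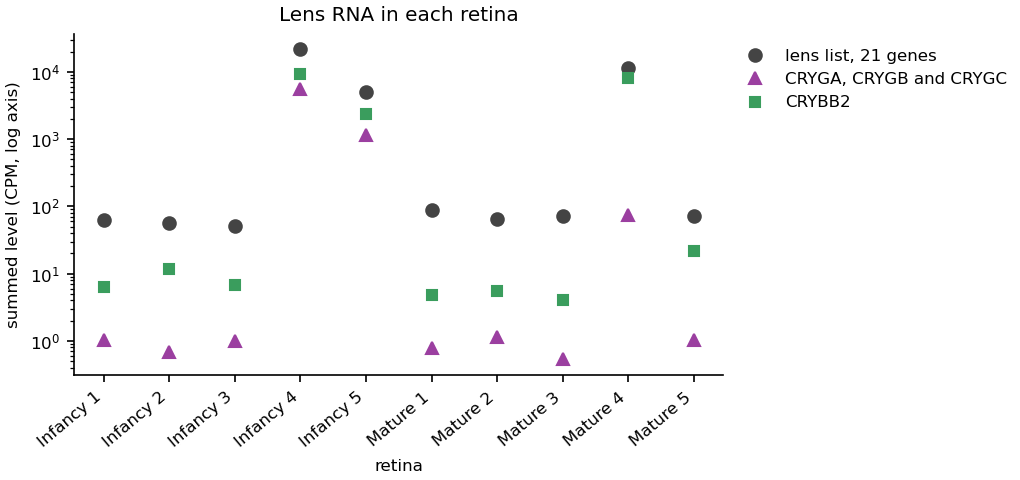
Summed level in CPM (log axis) of the lens list, of the 3 γ-crystallins CRYGA, CRYGB and CRYGC, and of CRYBB2 in each infant and mature retina. Infancy 4, Infancy 5 and Mature 4 lie far above the other 7, and the γ-crystallins are at 5549 and 1162 CPM in the infant retinas, 75.2 CPM in Mature 4 and 0.530 to 1.16 CPM in the other 7.

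The lens RNA differed in its make-up between the infant retinas and the mature one. CRYBB2, a β-crystallin, was at 9419 CPM in Infancy 4, 2369 CPM in Infancy 5 and 7963 CPM in Mature 4. CRYGB, a γ-crystallin of the lens fibre, was at 3617, 786 and 44.7 CPM in the same retinas. CRYGA, CRYGB and CRYGC together made up 25.7% and 23.0% of the lens list in Infancy 4 and Infancy 5, and 0.667% in Mature 4. BFSP2, a filament protein of the lens fibre, was at 92.0, 30.6 and 155 CPM, so it was not lower in the mature retina. With 1 mature retina carrying such RNA, this difference has no replicate check. No lens gene passed the test between stages, and the log2 fold change of CRYBB2 was -0.56 with an SE of 2.31.

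Between stages, 52 features rose and 7 fell in mature retinas by edgeR's quasi-likelihood test at a Benjamini-Hochberg adjusted p under 0.05. These are 0.19% and 0.0255% of the features tested. Few of them were single named genes: EVA1C was higher in mature retinas (0.00845% of 11834), and IGF2BP2 and SLCO1C1 were lower (0.0169%). Numbered copies made up 61.5% of the features that rose but 9.84% of those tested. Among copies 32 rose (1.19%), while 0 fell by edgeR, with 80 lower at an unadjusted p under 0.05 and 11 lower by DESeq2. LINC features comprised 12 that rose (0.248%) and 1 that fell (0.0207%), and antisense features 5 (0.0635%) and 4 (0.0508%). At an unadjusted p under 0.05 the balance went the other way in both, with 214 LINC features higher and 266 lower, and 150 antisense features higher and 498 lower. DESeq2 called 64 LINC features higher and 39 lower, and 32 antisense features higher and 72 lower. Fitting the Cell Ranger version as a second term, an alternative planned from the labels, gave 200 features higher (0.73%) and 74 lower (0.27%), among them 14 and 8 single named genes (0.118% and 0.0676%) and 27 and 39 antisense features (0.343% and 0.496%). All 59 features called by stage alone were also called in that fit, in the same direction. At an unadjusted p under 0.05 there were 668 single named genes higher and 166 lower, the 3 named ones included. This balance depended on the retinas and features in the fit. It was 1216 and 1170 in the 5.0.1 libraries alone and 455 and 327 with only single named genes in the table, and it turned to 946 and 1300 without the 3 retinas with lens RNA.

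IGF2BP2 had the largest change of the 3 single named genes. It encodes an RNA-binding protein of the IGF2 mRNA-binding family, which is abundant in fetal and growing tissue and controls the stability and translation of bound mRNAs. In infant retinas it was at 42.7, 37.9, 52.7, 45.2 and 46.6 CPM (Infancy 1 to 5). In mature retinas it was at 7.95, 6.93, 17.2, 10.3 and 8.16 CPM (Mature 1 to 5). The lowest infant value thus lay above 2 times the highest mature one, whereas 0.762% of all features lay lower without overlap and 1.47% higher, and the 3 retinas with lens RNA sat inside the range of their stage. The mean fell from 45.0 ± 5.43 to 10.1 ± 4.16 CPM (SD, n = 5 each). The log2 fold change was -2.17 (SE 0.23, edgeR adjusted p = 0.0043). Within the version 5.0.1 libraries the log2 fold change was -2.58 (adjusted p = 0.0031), and within 7.0.1 it was -1.87 (adjusted p = 0.27). The adjusted p stayed under 0.05 whichever 1 of the 10 retinas was left out, with log2 fold changes from -2.44 to -2.10. Without the 3 retinas with lens RNA it was -2.21 with an adjusted p of 0.053, so the call was lost while the size was kept. Senile retinas, which took no part in the test and whose animals came from another institute, had 3.80 to 9.86 CPM.

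**Figure D2:**
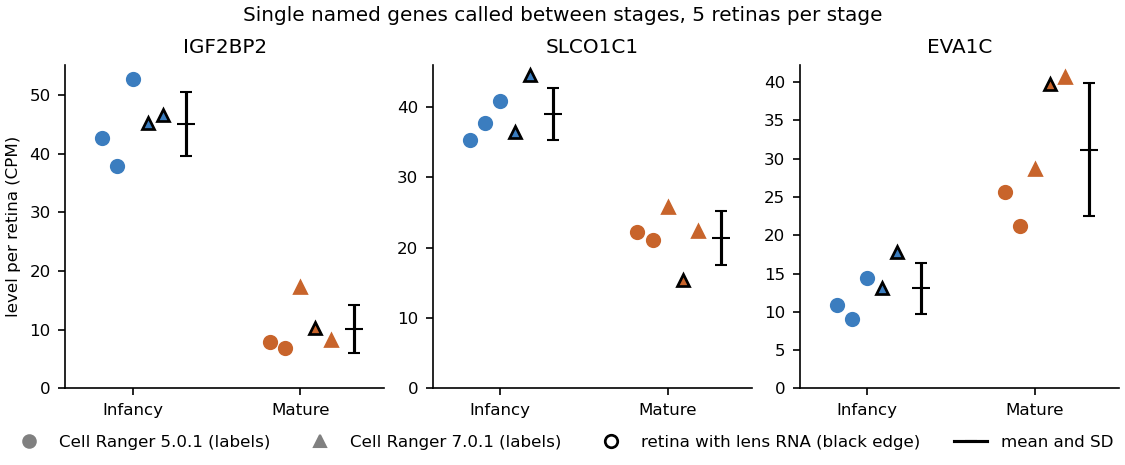
Level in CPM of IGF2BP2, SLCO1C1 and EVA1C in each retina; circles and triangles are the 2 Cell Ranger versions of the labels, black edges mark the 3 retinas with lens RNA, and bars give the mean and SD. The stages do not overlap in any panel, for example 37.9 to 52.7 against 6.93 to 17.2 CPM for IGF2BP2.

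The antisense features of IGF2BP2 moved the same way. Of 5 such features, 4 were tested and 3 fell. IGF2BP2-AS-4 was at 4.32 to 9.86 CPM in infancy and 0.848 to 1.22 CPM in mature retinas (log2 fold change -2.80, SE 0.27, edgeR adjusted p = 0.0029). IGF2BP2-AS-2 fell by 2.92 and IGF2BP2-AS-3 by 2.82 on the log2 scale, and without the 3 retinas with lens RNA their adjusted p were 0.053 and 0.13. IGF2BP2-AS-1 did not pass, with a log2 fold change of -0.23 and an SE of 0.61. How strand entered the counting is not given in the sources used here, so sense and antisense counts of IGF2BP2 are not taken as independent. The related gene IGF2BP3 was at 4.37 ± 1.80 CPM in infancy and 2.93 ± 1.05 CPM at maturity, and did not pass (adjusted p = 0.66).

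To see where the RNA lay, nuclei were assigned to a class by their scores for listed marker genes, which placed 39004 of the 82708 nuclei. A further limit is that 15666 nuclei had a second score near the limit for assignment, so these are ranges of scores and not cell types. The mean level of IGF2BP2 was lower at maturity in each of the 9 classes, and in 7 of them no mature retina reached an infant one. In nuclei with Müller markers, the radial glia of the retina, it was 104 ± 15.0 CPM in infancy and 39.7 ± 12.5 CPM at maturity (n = 5 each). In nuclei with markers of bipolar cells (BCs), the relay from photoreceptors to ganglion cells, it went from 73.3 ± 14.5 to 5.22 ± 4.39 CPM. Amacrine cell (AC) nuclei had 40.5 ± 9.22 and 11.0 ± 6.07 CPM, and cone nuclei had 14.0 ± 1.52 and 1.66 ± 1.18 CPM. The infant level was thus highest in Müller and BC nuclei. Values overlapped between stages in horizontal cell (HC) nuclei and in astrocyte nuclei, which had 55.3 ± 17.6 CPM in 5 infant and 35.9 ± 26.8 CPM in 4 mature retinas. Some classes held few UMIs of IGF2BP2, with 49 and 8 in rod and 14 and 2 in microglial nuclei, and the part of RNA from outside the nucleus in these levels was not tested. For comparison, the features with every mature retina below every infant one made up 0.693% in BC nuclei, 0.438% in Müller, 0.642% in cone, 0.306% in rod, 0.591% in AC, 0.606% in RGC and 0.511% in microglial nuclei.

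**Figure D3:**
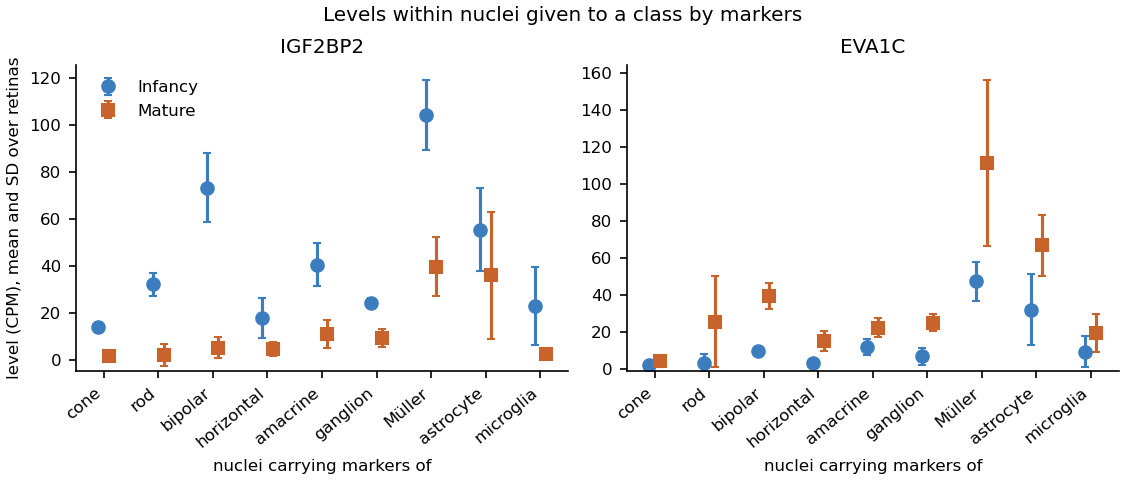
Mean level in CPM of IGF2BP2 and EVA1C within nuclei given to each class by markers, with the SD over retinas that had at least 50 such nuclei (5 infant throughout; 5 mature, but 4 for ganglion cells and astrocytes and 3 for microglia). IGF2BP2 is lower at maturity in every class, and in Müller nuclei EVA1C goes from 47.5 to 112 CPM.

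SLCO1C1 encodes a membrane carrier for thyroxine and other organic anions, known from brain barriers and glia. It was at 35.4, 37.8, 40.9, 36.5 and 44.5 CPM in infant retinas and at 22.3, 21.1, 25.8, 15.4 and 22.4 CPM in mature ones. The stages did not overlap, and the lowest value was that of Mature 4, which carried lens RNA. The mean went from 39.0 ± 3.71 to 21.4 ± 3.78 CPM, a log2 fold change of -0.87 (SE 0.15, edgeR adjusted p = 0.0495, just inside the threshold). The size was -0.81 within version 5.0.1, -0.85 within 7.0.1 and -0.79 without the 3 retinas with lens RNA, where the adjusted p was 0.069. In the 7.0.1 libraries alone the call was lost, as 0 features passed there. Leaving out 1 retina at a time kept the call in 1 of 10 cases. Senile retinas had 16.6 to 27.0 CPM. By class, astrocyte nuclei had the highest level in both stages, 278 ± 251 CPM in 5 infant and 133 ± 109 CPM in 4 mature retinas, with overlap. Ganglion cell (RGC) nuclei were the 1 class without overlap, at 45.5 ± 5.90 and 25.4 ± 3.48 CPM. AC nuclei, at 59.4 ± 16.0 and 32.8 ± 6.49 CPM, overlapped.

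EVA1C encodes a membrane protein that binds heparin and the axon guidance cue SLIT. It was at 10.9, 9.09, 14.4, 13.1 and 17.8 CPM in infant retinas and at 25.6, 21.2, 28.7, 39.8 and 40.6 CPM in mature ones. Every mature retina was above every infant retina, and within each stage the retinas of version 7.0.1 were the higher ones except for Infancy 3. The mean went from 13.1 ± 3.34 to 31.2 ± 8.66 CPM, a log2 fold change of 1.24 (SE 0.21, edgeR adjusted p = 0.0496). With the version as a term it was 1.15 with an adjusted p of 0.0094. Without the 3 retinas with lens RNA it was 1.27 with an adjusted p of 0.099, and the call was lost in each of the 10 fits that left out 1 retina. The call was also lost in the 7.0.1 libraries alone and with only single named genes in the table. Senile retinas had 20.6 to 39.5 CPM. All 9 classes had a higher mean at maturity, and 4 did not overlap. Müller nuclei had 47.5 ± 10.4 CPM in infancy and 112 ± 44.7 CPM at maturity, and BC nuclei 9.97 ± 2.40 and 39.5 ± 7.05 CPM. Mature 4, which carried lens RNA, had 1524 nuclei with Müller markers, VIM included, against 280 to 501 in the other mature retinas. Whether nuclei of other tissue are among them was not tested, which also limits the Müller level of IGF2BP2. Features with every mature retina above every infant one made up 0.719% in Müller, 0.959% in BC, 0.507% in HC and 1.62% in RGC nuclei.

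With the Cell Ranger version as a term, 22 single named genes passed (0.186% of those tested), including the 3 above. The other 19 are named because of this fit, after their values were seen. Each of the 22 had the same sign of fold change within both versions, which choosing them by this fit on the same retinas favours, so nothing is read from it. Of 11656 single named genes tested in both, 52.8% had the same sign. H2-EB1, a class II antigen-presenting chain, was at 9.27, 4.45, 7.55, 2.32 and 1.41 CPM in infancy and at 0.505, 1.12, 0.570, 0.611 and 0.106 CPM at maturity. The stages did not overlap, and the 2 infant retinas with lens RNA were the lowest of their stage. Its log2 fold change in this fit was -2.59 (SE 0.47, adjusted p = 0.026). In nuclei with microglial markers it had 111 UMIs in infancy and 12 at maturity, or 207 ± 156 CPM in 5 and 19.7 ± 8.27 CPM in 3 retinas, with overlap. AC nuclei held 85 and 15 UMIs, also with overlap of the levels. Astrocyte nuclei held 11 UMIs in 5 infant and 0 in 4 mature retinas, and HC nuclei 16 and 13 in 5 retinas each. USP18, which removes the interferon-induced modifier ISG15 from proteins, was at 1.37 to 2.01 CPM in infancy and 2.95 to 4.18 CPM at maturity (log2 fold change 1.07, SE 0.18, adjusted p = 0.019). IFNLR1, a receptor chain for type III interferons, was low throughout, at 0.0981 to 0.349 and 0.636 to 1.09 CPM.

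CDKN2B, an inhibitor of the G1 cyclin-dependent kinases, was at 0.637, 0.882, 1.05, 0.269 and 0.288 CPM in infancy and at 3.40, 4.30, 1.41, 0.877 and 1.45 CPM at maturity. Pooled values overlapped, and within each version every mature retina was higher. The retinas of version 7.0.1 were the lower ones of their stage, and they also had the lower sums of RGC markers, at 77.6 to 222 CPM against 386 to 710 CPM in the other 5. The part of either in the level of CDKN2B was not tested. The log2 fold change with the version as a term was 2.17 (SE 0.25, adjusted p = 0.0017), against 1.88 and an adjusted p of 0.39 by stage alone. In RGC nuclei CDKN2B was at 2.25 ± 1.72 CPM in infancy and 14.2 ± 4.63 CPM at maturity without overlap. CDC14B, a dual-specificity phosphatase, was at 39.1 to 67.6 and 54.6 to 94.7 CPM. ZBTB16, a BTB zinc-finger transcription factor, was at 38.0 to 53.0 CPM in infancy and 59.7 to 93.7 CPM at maturity, with the highest value in Mature 4. SNRPB2, a protein of the U2 spliceosomal particle, had the tightest values, 78.5 to 88.1 against 112 to 124 CPM (log2 fold change 0.47, SE 0.08). JADE2, a subunit of histone acetyltransferase complexes, was at 17.6 to 23.1 and 27.2 to 33.6 CPM. PRDM6 and ZNF329, both zinc-finger proteins, had log2 fold changes of 1.46 and 0.76.

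**Figure D4:**
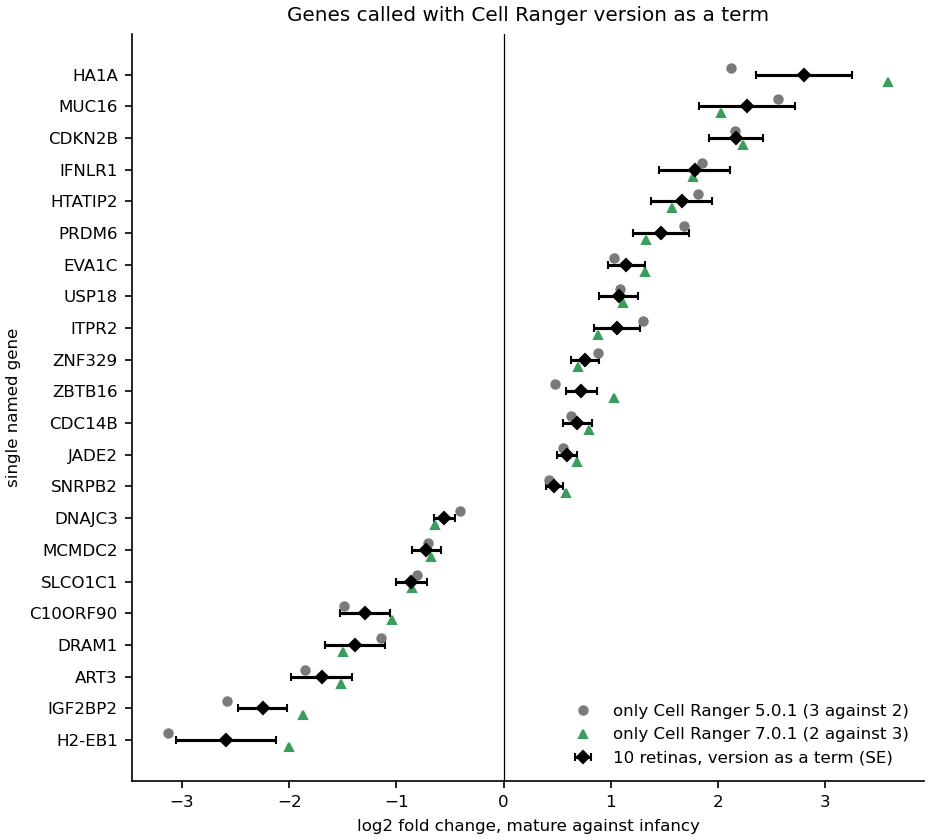
Log2 fold change of mature against infant retinas for the 22 single named genes called with Cell Ranger version as a term (diamonds, SE), and in the libraries of each version alone (circles and triangles, no error shown). All points of a gene lie on the same side of 0, which the choice of genes by this fit favours.

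Among the remaining genes of that fit, ITPR2, an inositol trisphosphate receptor of intracellular calcium stores, was at 18.3 to 27.5 CPM in infancy and 29.2 to 61.1 CPM at maturity. In cone nuclei it was 14.5 ± 1.37 and 44.8 ± 23.9 CPM without overlap, whereas in microglial nuclei, where it was highest, it was 365 ± 120 and 311 ± 63.5 CPM. HTATIP2, MUC16 and HA1A were also higher, with log2 fold changes of 1.66, 2.27 and 2.80. Of the genes that were lower, C10ORF90 was at 9.32 to 12.4 CPM in infancy and 3.03 to 7.35 CPM at maturity. Its level in HC nuclei was 19.8 ± 11.1 and 1.22 ± 1.14 CPM. MCMDC2, related to the replicative helicase, was at 13.2 ± 1.41 and 7.87 ± 0.751 CPM without overlap. DNAJC3, a cochaperone of the endoplasmic reticulum, was at 86.3 to 130 CPM in infancy and 50.8 to 101 CPM at maturity, with overlap (log2 fold change -0.55, SE 0.10, adjusted p = 0.021). ART3 and DRAM1 had log2 fold changes of -1.70 and -1.38. Without the 3 retinas with lens RNA, and with no version term, DRAM1 had a log2 fold change of -0.26.

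Features without a single gene name gave the other calls, and some lay in 1 class. LINC-TENT5A-1 had the largest rise among those at 5 CPM or more in every mature retina, from 8.73, 13.9, 15.9, 15.5 and 14.5 CPM to 326, 67.6, 109, 114 and 35.3 CPM. Even the lowest mature retina was above 2 times the highest infant one, and Mature 1 stood far above the others. The log2 fold change was 3.26 (SE 0.53, edgeR adjusted p = 0.038), and the adjusted p was 0.13 without the 3 retinas with lens RNA. It was a feature of cone nuclei, at 85.8 ± 33.1 CPM in infancy and 705 ± 314 CPM at maturity, with at most 14.6 CPM at maturity in the rod, BC, HC, AC, RGC, Müller and astrocyte nuclei and 66.7 CPM in microglial nuclei. LINC-NCKAP5-6, named here after its values were seen, did the reverse, from 22.8, 14.8, 11.2, 8.70 and 4.45 CPM to 1.41, 0.697, 2.57, 1.17 and 1.70 CPM (log2 fold change -3.07, SE 0.48, adjusted p = 0.032). In cone nuclei it was at 69.8 ± 38.2 and 6.08 ± 4.22 CPM. The summed level of the cone markers overlapped between stages, at 1137 to 1870 CPM in infancy and 699 to 3125 CPM at maturity. Among mature retinas this sum, like LINC-TENT5A-1, was highest in Mature 1 and lowest in Mature 5. The part of the cone share in the level of LINC-TENT5A-1 was not tested.

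GABRR1-AS-2, antisense to a GABA receptor subunit of BCs, was the one antisense feature that fell and reached 5 CPM in every infant retina. It was at 221, 216, 226, 383 and 249 CPM in infancy and at 114, 134, 155, 133 and 134 CPM at maturity, with its highest value in Infancy 4 (log2 fold change -0.96, SE 0.15, adjusted p = 0.035, and 0.053 without the 3 retinas with lens RNA). In BC nuclei it was at 894 ± 223 and 509 ± 86.7 CPM. GABRR1 itself was at 65.0 to 87.8 CPM and 33.1 to 68.2 CPM and did not pass (log2 fold change -0.61, adjusted p = 0.44). LINC-VMN2R116-53, at 0.785 to 2.22 CPM in infancy and 8.75 to 15.6 CPM at maturity, had a log2 fold change of 3.21 and stayed called in all 10 fits that left out 1 retina. MIA3li3 and UGGT2li3, copies of genes for endoplasmic reticulum proteins and named after their values were seen, had higher levels at maturity in all 9 classes without overlap. In the classes not yet given, such features made up 1.22% (cone), 0.438% (rod), 1.04% (AC), 0.792% (astrocyte) and 1.32% (microglia). MIA3li3 was at 25.3 to 34.9 CPM in infancy and 109 to 160 CPM at maturity (log2 fold change 2.10, SE 0.16, adjusted p = 0.0012), the smallest adjusted p of the comparison. A1BG-AS-2, also named after its values were seen, was at 0 to 0.0490 CPM in infancy and 0.848 to 5.58 CPM at maturity.

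The 32 copies that rose carried 13 names, among them TSORF, which is no gene symbol, with 2. Copies of ZFP39, ZFP809 and VMN2R116 were 17 of them, and these 3 names had 74 copies tested. ZFP39 and ZFP809 name zinc-finger proteins of the KRAB type, the latter known for silencing endogenous retroviruses in mice, and VMN2R116 a pheromone receptor of the vomeronasal organ. The names were picked after their values were seen and are described without a test. All 12 ZFP809 copies had a positive log2 fold change with a median of 1.83, and 5 rose. ZFP39 had a median of 1.23 over 37 copies with 7 that rose, and VMN2R116 had 1.33 over 25 copies with 5. Those that rose were 41.7% of the ZFP809, 18.9% of the ZFP39 and 20.0% of the VMN2R116 copies, against 1.19% of all numbered copies, and the names were picked for this. The median of all features was -0.02. ZFP39li9 was at 0.891 to 1.32 CPM in infancy and 6.54 to 12.8 CPM at maturity (log2 fold change 2.99, SE 0.27, adjusted p = 0.0022). Summed over all copies of ZFP809, the level was 62.5, 61.6, 54.5, 39.0 and 39.0 CPM in infancy and 180, 157, 111, 138 and 137 CPM at maturity. How reads that fit more than 1 copy entered such sums was not tested. The VMN2R116 sum was 85.1 to 161 and 171 to 356 CPM. The ZFP39 sums overlapped by 1 retina, at 289 to 371 and 366 to 540 CPM.

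**Figure D5:**
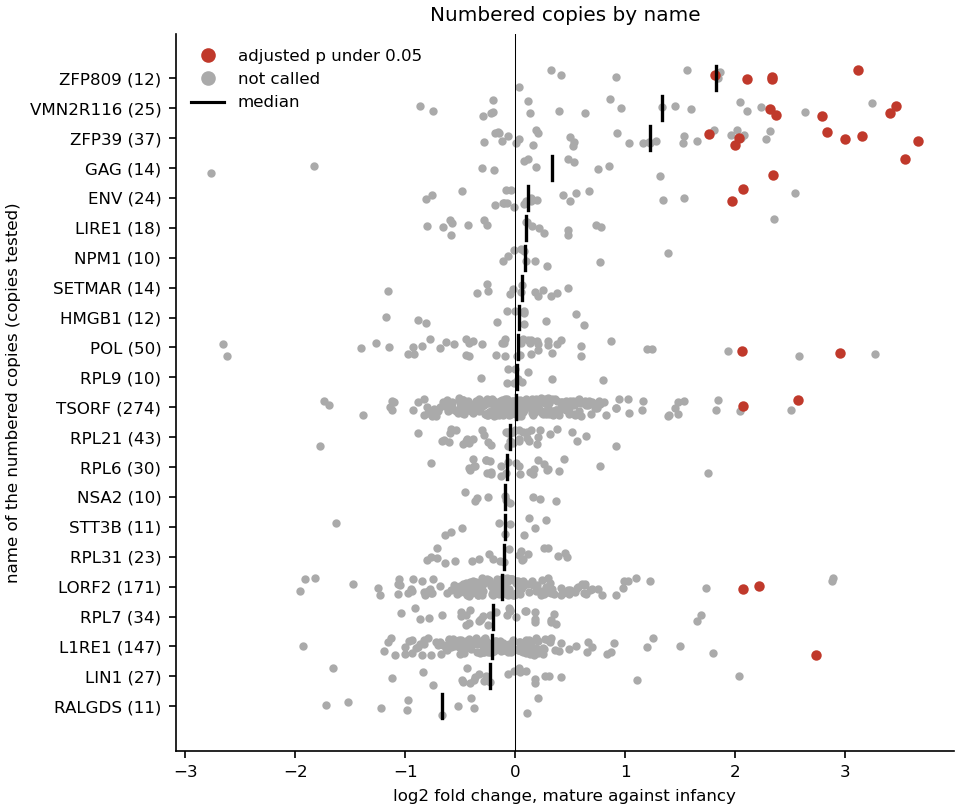
Log2 fold change of mature against infant retinas for every tested copy of the 22 names with at least 10 copies tested; red points passed an adjusted p of 0.05, grey ones did not, and black bars are medians. ZFP809, VMN2R116 and ZFP39 have medians of 1.83, 1.33 and 1.23, and the other names lie nearer to 0, the farthest of them being RALGDS at -0.67.

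Copies named after retroelements had medians nearer to 0. ENV, GAG and POL name retroviral genes, and L1RE1 and LORF2 the open reading frames of LINE-1 elements. Their medians were 0.12, 0.34, 0.03, -0.22 and -0.12 over 24, 14, 50, 147 and 171 copies, with 2, 2, 2, 1 and 2 that rose. These are 8.33%, 14.3%, 4.00%, 0.680% and 1.17% of their copies, against 1.19% of all numbered copies, and whether these shares differ was not tested. ENVli38, named after its values were seen, was at 2.55 to 3.61 CPM in infancy and 9.84 to 15.9 CPM at maturity (log2 fold change 1.97, SE 0.20, edgeR adjusted p = 0.0029). Copies of ribosomal protein genes had medians from -0.20 for RPL7 over 34 copies to 0.01 for RPL9 over 10. The RALGDS copies had the lowest median, and their sum was 123 to 246 CPM in infancy and 80.5 to 144 CPM at maturity, with overlap. Taken over all features of a kind, antisense features had a median log2 fold change of -0.23 and single named genes of 0.07. The antisense value was -0.03 in the 5.0.1 libraries alone and -0.47 in the 7.0.1 libraries alone. It turned to 0.08 without the 3 retinas with lens RNA, which include all infant retinas of 7.0.1. The antisense share of all UMIs was highest in Infancy 4, at 8.01%, against 4.49% to 5.93% in the other 9.

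Genes of retinal pathways were followed through 21 lists with 511 tested members. edgeR called 2 of them, IGF2BP2 and SLCO1C1, or 0.391%, against 0.0254% of all single named genes and 0.215% of all features. The lists were chosen with earlier results of these data known, so nothing is read from this share. DESeq2 called 6, adding ACAN, SCN1A, FOXP1 and ISG15, or 1.17% of the members against 0.786% of single named genes and 1.53% of all features. At an unadjusted p under 0.05 there were 37, or 7.24%, near the 7.05% of single named genes and the 8.26% of all features. In the paragraphs that follow, members were given in the order of their list, each value is a mean ± SD of CPM over 5 infant and then 5 mature retinas, and none of these members passed edgeR's adjusted test. No mitochondrially encoded gene of the list could be tested. All 11834 single named genes had a median log2 fold change of 0.07, beside which the medians and signs of the lists are to be read.

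Growth and division lists showed no call beyond IGF2BP2. Of 11 tested oncofetal genes the median log2 fold change was 0.00. LIN28B, an inhibitor of let-7 microRNAs, was at 33.0 ± 7.03 and 39.4 ± 19.1 CPM, and HMGA1, a chromatin protein of growing cells, at 13.9 ± 3.93 and 14.1 ± 1.40 CPM. Of 18 genes of immature neurons and growth cones 14 had a negative sign, with a median of -0.29 and 0 at an unadjusted p under 0.05. With the version as a term the median was -0.15, and the RGC markers, whose median went from -0.39 to -0.06, moved with it; their part in it was not tested. DCX, a microtubule protein of migrating neurons, was at 38.4 ± 4.83 and 42.8 ± 14.4 CPM, STMN2 at 111 ± 58.4 and 71.6 ± 37.0 CPM, and STMN1 at 53.5 ± 20.0 and 43.1 ± 12.6 CPM. The 13 tested cell division genes were all low. CDK1 was at 1.07 ± 0.263 and 1.53 ± 1.54 CPM and PCNA, the DNA polymerase clamp, at 1.84 ± 0.442 and 1.63 ± 0.155 CPM. Among 42 axon guidance genes 4 were higher at an unadjusted p under 0.05. SLIT2, a ligand of the ROBO receptors, was at 202 ± 25.6 and 234 ± 16.9 CPM, and ROBO1 at 436 ± 71.4 and 454 ± 123 CPM.

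Lists of the matrix around cells included wide spreads at maturity. Of 32 matrix and basement membrane genes 24 had a positive sign, with a median log2 fold change of 0.38. FBN1, the fibrillin of elastic microfibrils, was at 43.6 ± 10.5 and 125 ± 148 CPM and FBN2 at 58.3 ± 13.2 and 71.2 ± 61.2 CPM. The SD of FBN1 exceeded its mean at maturity, and its level in Mature 4, the retina with RNA of lens, fibroblast and ciliary lists, was the highest of the 10. The part of that tissue in the list was not tested. Of 19 perineuronal net genes 12 were negative, with a median of -0.05, and at an unadjusted p under 0.05 there were 1 higher and 2 lower. ACAN, the aggrecan core of these nets, was at 2.39 ± 0.491 and 1.33 ± 0.293 CPM (log2 fold change -0.85, SE 0.24, edgeR adjusted p = 0.32) and was lower by DESeq2. NCAN, a proteoglycan of developing neural tissue, was at 14.5 ± 2.16 and 10.3 ± 1.28 CPM, and BCAN at 10.8 ± 6.65 and 7.96 ± 3.97 CPM.

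No receptor or channel subunit of the lists passed the test. Of 21 glutamate receptor subunits 0 reached an unadjusted p under 0.05, and the median was 0.00. GRIN2B, the NMDA receptor subunit of young synapses, was at 264 ± 28.6 and 254 ± 51.2 CPM, and GRIN2A, which joins it with maturation, at 418 ± 62.7 and 423 ± 112 CPM. GABA and glycine receptor and chloride transporter genes had 20 of 26 negative, with a median of -0.17 that became -0.06 with the version as a term. GABRA2, a subunit of the GABA-A receptor, was at 220 ± 48.3 and 195 ± 48.6 CPM. Among 31 sodium and potassium channels SCN1A and SCN3A did not overlap between stages, where 0.304% of single named genes lay lower and 1.44% higher without overlap. SCN1A was at 11.0 ± 6.08 and 4.78 ± 0.961 CPM (edgeR adjusted p = 0.27), and SCN3A, a sodium channel of young neurons, at 201 ± 13.6 and 156 ± 35.2 CPM (adjusted p = 0.59). SCN2A was at 103 ± 25.5 and 90.6 ± 20.5 CPM. Of 28 vesicle and active zone genes, SYN3, a synapsin, was at 77.5 ± 6.16 and 111 ± 31.5 CPM without overlap (adjusted p = 0.42), and SYN1 at 35.6 ± 4.42 and 34.9 ± 10.4 CPM.

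Phototransduction genes had 23 of 29 positive signs and a median log2 fold change of 0.23, with 0 at an unadjusted p under 0.05. All 9 cone markers are members of this list, and the sum of the list was highest in Mature 1 (6878 CPM) and lowest in Mature 5 (2436 CPM), as was that of the cone markers (3125 and 699 CPM). The part of the cone share in this shift was not tested. OPN1LW, the long-wave cone opsin, was at 85.4 ± 17.8 and 122 ± 104 CPM, and GNAT2, the cone transducin, is a cone marker that was at 168 ± 62.7 and 203 ± 115 CPM. OPN1SW, the short-wave opsin, was at 2.98 ± 1.82 and 3.63 ± 1.97 CPM and GNAT1, the rod transducin, at 5.72 ± 1.53 and 5.26 ± 1.34 CPM. Besides SLCO1C1, none of 22 retinoid and thyroid hormone genes reached an unadjusted p under 0.05. RARB, a retinoic acid receptor, was at 68.6 ± 8.98 and 71.3 ± 16.1 CPM, and RXRB, a partner of both receptor types, at 25.6 ± 7.20 and 33.2 ± 9.27 CPM. Transcription factors of retinal identity had 43 of 60 positive, with a median of 0.09. PAX6 was at 345 ± 28.0 and 383 ± 59.4 CPM and SIX3 at 39.5 ± 5.47 and 50.9 ± 11.5 CPM. FOXP1, named after its values were seen, had an edgeR log2 fold change of 0.57 (adjusted p = 0.31) and was higher by DESeq2. Notch, Wnt and BMP genes had a median of 0.12 over 41, with NOTCH2 at 40.5 ± 3.99 and 47.4 ± 20.7 CPM.

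Of the glial and immune lists, 18 glial reactivity genes had a median log2 fold change of 0.12. GFAP, the filament of reactive glia, was at 1.74 ± 0.751 and 1.51 ± 0.624 CPM, and VIM, a filament of Müller cells and lens, at 45.4 ± 26.8 and 86.5 ± 120 CPM. Microglia, complement and antigen presentation genes had 17 of 22 negative and the lowest median of the gene lists, -0.51 (-0.35 with the version as a term), with 3 lower at an unadjusted p under 0.05. C1QA and C1QB, chains of the first complement component, were at 4.81 ± 3.74 and 1.73 ± 1.11 CPM and at 7.19 ± 5.48 and 2.37 ± 1.14 CPM. CSF1R, the growth factor receptor of microglia, was at 5.79 ± 2.32 and 4.12 ± 1.64 CPM. The summed level of the microglial markers was 45.9 to 68.0 CPM in infancy and 21.5 to 51.9 CPM at maturity, and its part in these values was not tested. ISG15, named after its values were seen, had an edgeR log2 fold change of -2.27 (adjusted p = 0.33).

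Stress, clock and chromatin lists completed the set. Immediate early genes had a median log2 fold change of -0.01 over 19, with FOS at 5.53 ± 5.39 and 3.72 ± 3.33 CPM. HSPA5, the main chaperone of the endoplasmic reticulum, was at 129 ± 79.7 and 62.4 ± 26.1 CPM, and 10 of 14 tested folding genes were negative. Clock genes had 13 of 20 positive and a median of 0.07, with 1 higher at an unadjusted p under 0.05. CLOCK was at 123 ± 20.9 and 116 ± 14.3 CPM and ARNTL at 113 ± 6.90 and 133 ± 38.4 CPM. DNA methylation, Polycomb and cohesin genes had 25 of 33 positive and a median of 0.08. DNMT3A, a de novo methyltransferase, was at 111 ± 12.1 and 138 ± 16.6 CPM and TET2, which oxidizes methylcytosine, at 34.3 ± 3.80 and 39.4 ± 3.43 CPM.

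No marker of the 9 retinal classes passed the edgeR test, with 1 AC, 1 astrocyte and 1 microglial marker at an unadjusted p under 0.05 and 0 by DESeq2. All 7 tested cone markers had a positive sign, with a median log2 fold change of 0.26. All 8 tested RGC markers had a negative one, with a median of -0.39 that became -0.06 with the version as a term. Their summed level was 77.6 to 710 CPM in infancy and 156 to 490 CPM at maturity, so the spread within a stage was larger than the difference. All 6 tested astrocyte markers were negative as well, with a median of -0.22 (-0.14 with the version as a term). Microglial markers had the lowest median, -0.78 (-0.58 with the version as a term), with 6 of 7 negative. Vessel and oligodendrocyte lists overlapped between stages, at 115 to 135 and 92.6 to 137 CPM and at 19.1 to 36.2 and 19.5 to 39.3 CPM. Blood genes were at 3.63 to 11.4 and 2.66 to 5.56 CPM.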

How the data were processed

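Retinas had been frozen, nuclei isolated and libraries made with the 10x Genomics 3' kit. Alignment by the authors used Cell Ranger (5.0.1 or 7.0.1 per the labels, 7.0 in the methods) and the TS_3.0 genome, and the deposited values are raw UMI counts for each nucleus. Whether intronic reads were counted is not given in the sources used here, nor is how strand was used.

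A barcode was kept if its gene number lay above 200 and below 6000 and the 3 mitochondrial features held less than 5% of its counts. No doublet caller was run, and UMIs were summed per retina. Sums were tested with edgeR 4.0.16 in R 4.3.3 (TMM, filterByExpr, quasi-likelihood test, 5 mature against 5 infant retinas, no covariate) with Benjamini-Hochberg adjustment over all 27414 features. The SE given with an edgeR log2 fold change was computed from the F statistic, as the size of the change over the square root of F. DESeq2 1.42.0, other filters, covariates and left-out retinas were alternatives. Libraries held 20394216 to 50900459 UMIs. On simulated data for this comparison with 27414 features, edgeR found 8% of 100 features changed 2-fold and 55% of 100 changed 4-fold, with 4 false calls in all. The simulated counts were independent, without the deviations that the retinas share by Cell Ranger version. The changed features were a random draw over all kinds. These rates thus do not describe the test on such retinas or on the named genes.

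A nucleus was given to the class with the highest mean scaled marker level where at least 2 markers had a UMI and no other class scored over 0.5 of the highest. Class levels carry no test and use retinas with at least 50 such nuclei. The 10 markers without a UMI were left out.

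Genes and lists were chosen with earlier results of these data known. Named were the single genes past an adjusted p of 0.05 that did not overlap and reached 5 CPM in each retina of the higher stage, up to 3 other features per direction by the same rule, and for each list its called members with up to 4 others in list order. Others are said to be named after their values were seen, or stand beside a named gene, copy name or list. CPM compare a gene between retinas and are not corrected for length. Ages and sex come from the study's animal list. The reference table at hand is of another assembly, so no positions or sequences are given. One gene of the lists is not reported here.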

Additional observations from a re-analysis of the deposited data

Results flagged for a closer look

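Lens RNA was far from the other retinas of its stage in Infancy 4, at 21615 CPM for the lens list, and in Mature 4, at 11265 CPM. Mature 4 also stood apart for the fibroblast and sclera list, at 356 CPM, and for the ciliary body, iris and cornea list, at 271 CPM. CDC14B was at 67.6 CPM in Infancy 5, with the other 4 infant retinas close together. Chance alone marks some groups of 5 in this way.

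The stage difference itself differed between the libraries of the Cell Ranger versions for 8 of 27414 features by edgeR's test of the interaction, and 3104 features had an unadjusted p under 0.05. The interaction, given as the log2 fold change in 7.0.1 minus that in 5.0.1, was 9.83 for NUGGCli1, 14.9 for HMGN2li22, 4.89 for PRSS35, 4.85 for POL-AS-24 and 3.23 for L1RE1-AS-56. It was -6.49 for IGSF11-AS-1, -4.88 for LINC-ST8SIA4-10 and -5.41 for LINC-NHLRC2-1. PRSS35, a protease-like protein, was the 1 single named gene among them. None of the 8 was called between stages. Each version holds 2 or 3 retinas of a stage, so 1 retina can carry such a value.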

How the results depend on the processing

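Higher and lower features numbered 52 and 7, and single named genes 1 and 2, in the fit by stage. The 4 counts, in that order, were 276, 144, 71 and 22 with DESeq2, 200, 74, 14 and 8 with the Cell Ranger version as a term, 112, 24, 4 and 4 with the listed sex, 119, 14, 7 and 4 with all 15 retinas in the fit, and 91, 14, 9 and 3 with lens RNA as a term. They were 255, 163, 39 and 74 in the 5.0.1 libraries alone and 0, 0, 0 and 0 in the 7.0.1 libraries alone (edgeR, 3522 at an unadjusted p under 0.05). A filter of 5 CPM in 5 retinas gave 22, 6, 1 and 2, no filter 62, 9, 2 and 1, thinning to equal totals 52, 8, 1 and 1, and nuclei with class markers 41, 8, 0 and 2. With only single named genes in the table, 0 were higher and 1 was lower. Leaving out 1 retina gave 14 to 55, 2 to 7, 0 to 1 and 1 to 2, with the fewest higher features, 14, without Infancy 4. Alternatives chosen after seeing the data gave 45, 5, 0 and 1 with Y-linked RNA as a term, 222, 55, 38 and 10 with version and lens RNA as terms, and 12, 12, 0 and 2 without the 3 retinas with lens RNA, where 10 of the 52 and 2 of the 7 stayed called. The cause of these shifts was not tested. The listed sex is female in Infancy 1 to 3 and Mature 1 to 3, and male in Infancy 4, Infancy 5, Mature 4 and Mature 5. It thus splits these retinas as the version does, except for Mature 3, and all 3 retinas with lens RNA are listed as male. Sex, version and lens RNA therefore cannot be told apart in the fit with the listed sex. All 59 calls kept their sign in each alternative that tested them. The replicate block gave 38, 3, 1 and 1. Same-numbered retinas correlated at -0.463 to 0.507 in their deviations, and 1 of 5 matched its own number best. These correlations split by Cell Ranger version, so they cannot show whether the numbers pair animals. Retinas of the same Cell Ranger version correlated at 0.201 to 0.548 across stages and those of different versions at -0.639 to -0.182, and the fit by stage leaves the version out. The libraries of these versions also differ in UMIs per nucleus, and the part of depth in this split was not tested. The fit on nuclei without a lens UMI was not run, since Infancy 4, Infancy 5 and Mature 4 had 0 such nuclei. Depth limits features near 1 CPM and the smaller classes.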
